A study of Mus musculus with 6 samples.

Results

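The genes described here are 9 that build the contractile apparatus of smooth muscle: Acta2, Tagln, Myl9, Myh11, Cnn1, Lmod1, Tpm1, Tpm2 and Actg2. They were named in advance as a list, not selected by level, and are 9 of 32285 genes counted in each of 3 single-cell libraries of mouse quadriceps. Every one of them had UMIs (unique transcript molecules counted) in at least 1 cell class. The count of fibroblasts that carry Acta2 together with Tagln, a usual reading of myofibroblasts, is followed across the same libraries.

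The critical group had a 3 mm volumetric muscle loss (VML) injury of the left quadriceps, a defect size used to model muscle that does not regenerate. The subcritical group had a 2 mm injury of the same muscle, and the uninjured group had none. All animals were male wild-type C57BL/6 mice, 2-3 months old, and muscles were taken at day 7. In each group cells of 4 animals were tagged with hashtag antibodies, pooled, and run as 1 library of 5' single-cell transcripts, so group, pool and library cannot be told apart.

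The critical, subcritical and uninjured libraries held 3161, 3071 and 2195 barcodes and 7138662, 4954129 and 5681346 UMIs, of which 3101, 2846 and 2174 cells were used, with medians of 1589, 1281.5 and 1815 UMIs. Barcodes shared between libraries numbered 16 (critical and subcritical), 10 (critical and uninjured) and 16 (subcritical and uninjured). Cells were clustered without the 9 genes and without related contractile genes, 55 genes in all. Clusters were then called smooth muscle-like, pericyte-like, FAP-like and so on from markers other than the 9 genes. The smooth muscle markers included genes left out of clustering: Pln, Mustn1, Kcnmb1, Ppp1r14a, Synpo2, Itga8 and Nexn. FAP stands for fibro-adipogenic progenitor, the resident fibroblast of muscle. In smooth muscle-like cells 16 of 16 smooth muscle markers, the list naming the class, were found in each library, among them Myocd and Ppp1r14a. Hashtags named an animal for only 1, 2 and 5 smooth muscle-like cells, 14, 10 and 7 pericyte-like cells and 35, 18 and 3 FAP-like cells. Levels in these classes are therefore sums over 1 library, given as CPM (UMIs of the gene per 1000000 UMIs of the class), with 95% exact intervals that cover counting error only and no test between groups.

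Smooth muscle shortens when myosin with the heavy chain Myh11 and the regulatory light chain Myl9 pulls on thin filaments of the actins Acta2 and Actg2. The tropomyosins Tpm1 and Tpm2 lie along those filaments, calponin (Cnn1) and transgelin (Tagln) bind them, and leiomodin (Lmod1) starts their growth. In resting muscle most of these genes mark the vessel wall, where smooth muscle coats arteries and pericytes coat capillaries. Tpm1 and Tpm2 are shared with skeletal muscle. In a wound fibroblasts can switch on part of the same set, Acta2 above all, and are then called myofibroblasts, which pull the scar together. Serum response factor binds CArG boxes in many of these promoters, and TEAD factors bind the MCAT element CATTCC. The actins are near-identical as proteins, and how reads shared between them were counted is not given in the sources used here.

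Promoter sequences from RefSeq (GRCm38.p6, not the GRCm39 build of the counts) were found for 6 of the 9 genes: Acta2, Myl9, Cnn1, Lmod1, Tpm1 and Tpm2. The 250 bases before the start are printed for 3 genes that stood at least 2-fold higher in FAP-like cells of both wounds and hold a match. Capitals mark CArG boxes, CArG boxes with 1 G or C in the A/T core, and CATTCC on either strand. Acta2 lies at chr19:34255374-34255623 on the minus strand, Myl9 at chr2:156775214-156775463 on the plus strand and Tpm1 at chr9:67049214-67049463 on the minus strand.
Acta2: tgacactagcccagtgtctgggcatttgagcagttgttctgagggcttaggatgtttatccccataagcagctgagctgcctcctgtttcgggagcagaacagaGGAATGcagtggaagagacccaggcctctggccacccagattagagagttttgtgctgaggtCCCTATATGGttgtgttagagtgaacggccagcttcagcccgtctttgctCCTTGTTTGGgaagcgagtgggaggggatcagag
Myl9: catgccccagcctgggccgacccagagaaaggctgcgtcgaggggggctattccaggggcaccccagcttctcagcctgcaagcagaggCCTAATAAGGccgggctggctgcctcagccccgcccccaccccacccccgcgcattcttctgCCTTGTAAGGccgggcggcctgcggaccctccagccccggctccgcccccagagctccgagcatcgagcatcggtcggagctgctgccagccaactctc
Tpm1: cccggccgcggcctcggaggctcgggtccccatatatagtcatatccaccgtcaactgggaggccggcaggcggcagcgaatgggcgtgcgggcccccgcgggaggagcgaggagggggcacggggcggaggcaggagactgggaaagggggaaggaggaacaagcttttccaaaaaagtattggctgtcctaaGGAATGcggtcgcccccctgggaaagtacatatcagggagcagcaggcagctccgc
A CArG box was present in 1 of the 6 promoters (Myl9, bases 161 to 152 before the start) and in 1.47% of 32851 RefSeq promoters of this length. The box with 1 altered core base was in 2 of 6 (Acta2 at 84 to 75 and at 34 to 25, Myl9 at 99 to 90) and in 7.24% of all promoters. CATTCC was in 3 of 6 (Acta2 at 146 to 141, Lmod1 at 130 to 125, Tpm1 at 56 to 51) and in 12.6% of all. No match overlapped another. These are letter matches in this window, not evidence of binding.

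A smaller share of the contractile UMIs lay in the vessel wall in the wounds than in intact muscle, though smooth muscle-like cells remained the largest holder among the named classes. Vessel wall (mural-like) cells, smooth muscle-like and pericyte-like together, held 46.1% of them in the critical, 58.9% in the subcritical and 96.3% in the uninjured library. Smooth muscle-like cells held 30.2% of the 9 genes' UMIs in the critical, 43.9% in the subcritical and 92.2% in the uninjured library. Pericyte-like cells held 15.9%, 15.0% and 4.13%. FAP-like cells held 22.8% in the critical, 18.8% in the subcritical and 0.270% in the uninjured library. Tenocyte-like cells, the fibroblasts of tendon, held 8.91%, 5.25% and 0.173%, and myogenic-like cells 5.41%, 5.49% and 0.119%. Over all cells the 9 genes made up 0.317%, 0.279% and 1.41% of UMIs. Cell numbers differed as well: smooth muscle-like cells numbered 60, 55 and 190, and FAP-like cells 769, 630 and 159, so fewer cells of a type and less RNA per cell both enter these shares.

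**Figure D1:**
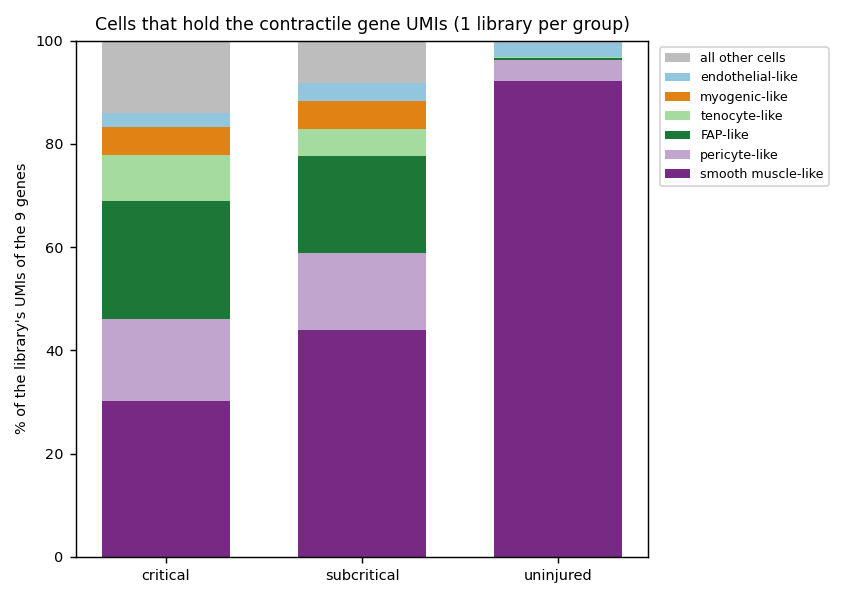
Stacked bars give, for the critical, subcritical and uninjured library, the percentage of the UMIs of the 9 genes held by each cell class. Smooth muscle-like cells take 30.2%, 43.9% and 92.2%, and FAP-like cells 22.8%, 18.8% and 0.270%.

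Within classes the same order held for 8 of the 9 genes: smooth muscle-like cells had the highest CPM of all classes in every library, and pericyte-like cells came next except for Tpm2 in the subcritical library. There myogenic-like cells had 1121 (957 to 1305) and pericyte-like cells 971 (807 to 1158) CPM of Tpm2, with overlapping intervals. Actg2, the actin of gut and bladder muscle, was the exception. It was highest in pericyte-like cells, at 351 (283 to 431), 245 (166 to 347) and 160 (104 to 234) CPM in the critical, subcritical and uninjured library.

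**Figure D2:**
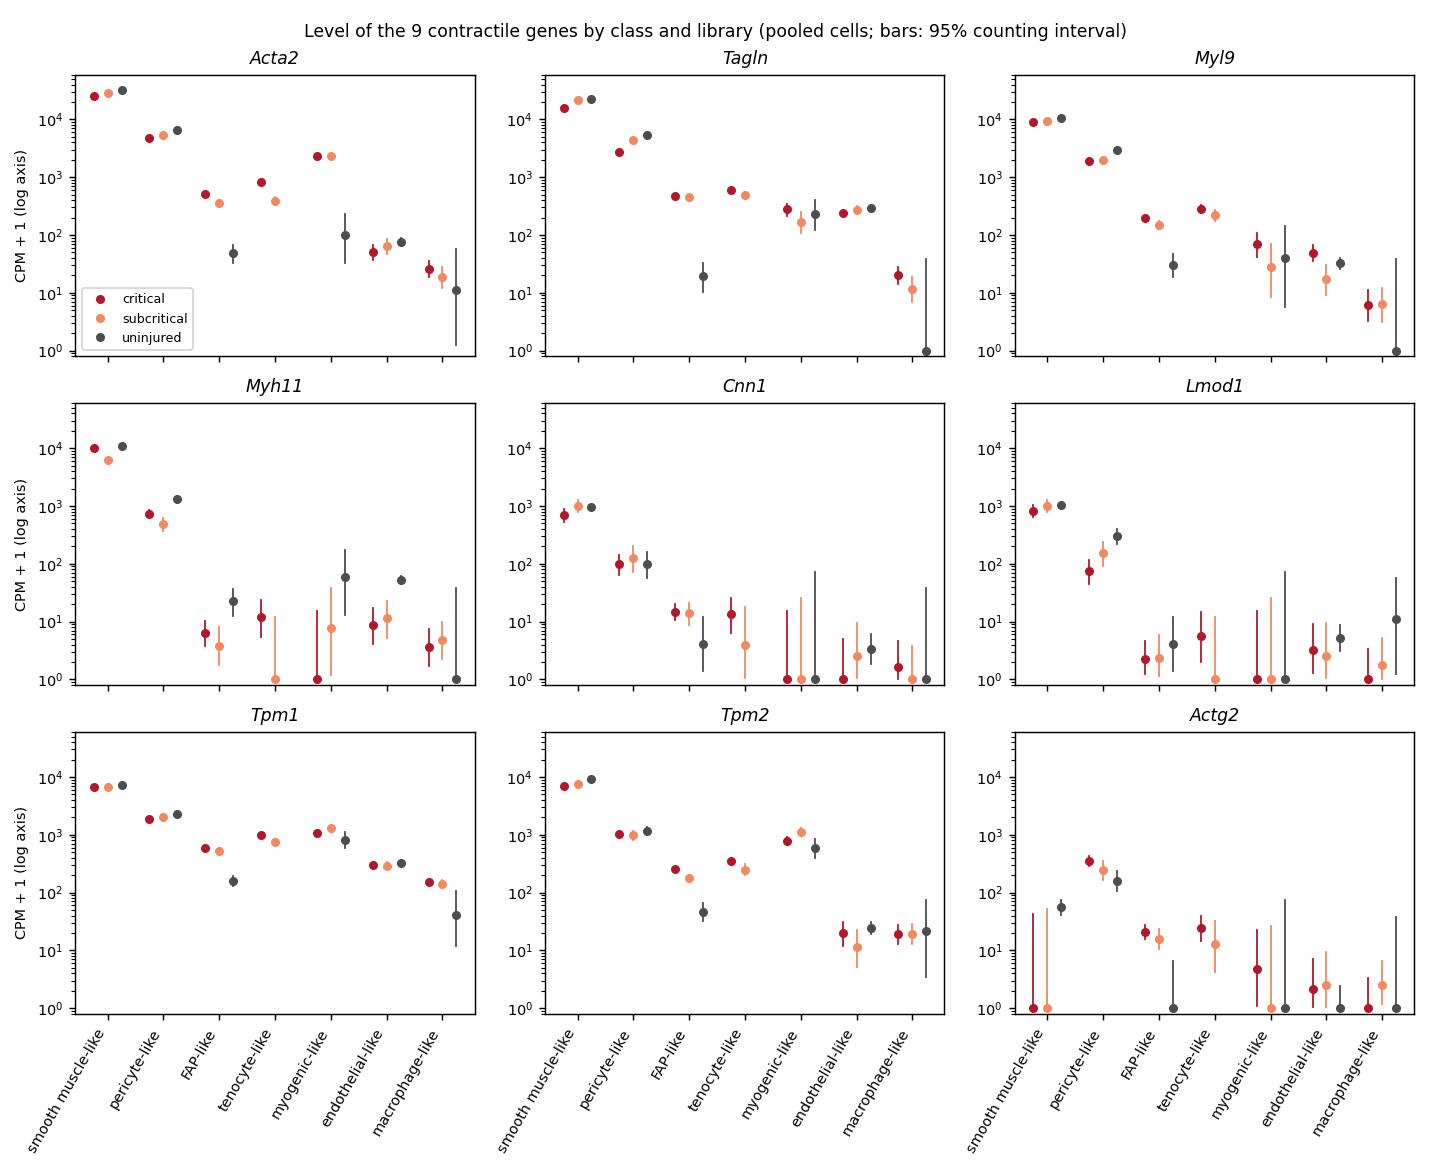
Each panel shows 1 gene, with CPM + 1 on a log axis against cell class; points are the critical, subcritical and uninjured libraries and bars are 95% counting intervals. Smooth muscle-like cells are highest for every gene but Actg2, and Acta2 in FAP-like cells stands at 508, 364 and 47.3 CPM.

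Smooth muscle-like cells carried the contractile programme at a high level in both wounds. The 9 genes summed to 7.54% of their UMIs in the critical, 8.18% in the subcritical and 9.56% in the uninjured library, a log2 ratio of −0.34 (−0.38 to −0.31) for critical over uninjured and −0.22 (−0.26 to −0.19) for subcritical over uninjured. Of the 8 members with UMIs in all 3 libraries, 0 stood 2-fold higher or lower in any comparison. The background in critical over subcritical was 11.4% of 2757 genes higher and 7% lower. Per cell the spread was wide and overlapping, with medians of 7.12%, 8.35% and 8.10% and quartiles of 4.40 and 9.71%, 6.02 and 10.6% and 3.96 and 10.6%.

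Among thin filament genes, Acta2 stood at 25042 CPM in the critical, 28465 in the subcritical and 32372 in the uninjured library, and Tagln at 16066, 21353 and 22850 CPM. Tpm1 stood at 6614, 6623 and 7351 CPM and Tpm2 at 7100, 7701 and 9391 CPM. All 4 were lower in both wounds, by log2 0.10 to 0.51. Cnn1 stood at 690 (528 to 886), 1008 (789 to 1270) and 960 (892 to 1033) CPM and Lmod1 at 825 (647 to 1038), 1008 (789 to 1270) and 1030 (959 to 1104) CPM, all on 61 to 73 UMIs in the injured libraries. Only Cnn1 of critical against uninjured cells had intervals that do not overlap.

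The myosin genes split. Myl9 stood at 9067 CPM in the critical, 9311 in the subcritical and 10702 in the uninjured library. Myh11, the heavy chain and the most specific gene of mature smooth muscle, stood at 10028, 6371 and 10936 CPM. The subcritical library was thus the low one for Myh11, at log2 −0.78 (−0.92 to −0.64) over uninjured, with critical over subcritical at 0.65 (0.49 to 0.82). Actg2 had no UMI in 60 critical or 55 subcritical cells and 42 UMIs in 4 of 190 uninjured cells, at least 1.62-fold and 1.31-fold lower in the wounds when 3 counts over the library are taken as the floor.

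Other genes of smooth muscle-like cells are given by list, with counts past 2-fold. Of the other smooth muscle apparatus and calcium genes, 0 of 24 were higher and 1 lower in critical over uninjured, with a median log2 of −0.05, against 11.1% of 7695 genes higher, 15% lower and a median of −0.01. The one lower gene was Jph2, which ties the plasma membrane to calcium stores, at 67.8 against 183 CPM (log2 −1.42, −2.91 to −0.28). In subcritical over uninjured 0 of 24 were higher and 3 lower, against 9.43% of 7572 genes higher and 21.6% lower. Of the non-muscle actomyosin genes 1 of 21 was higher in critical over uninjured, Tpm4, at 215 against 87.8 CPM. Of the vascular tone genes 2 of 11 were higher and 1 lower. Rgs5, a brake on G protein signalling typical of pericytes, stood at 2035 CPM in the critical, 2212 in the subcritical and 207 in the uninjured library, log2 3.29 (2.98 to 3.61) and 3.41 (3.09 to 3.75). Of the scar matrix genes 7 of 11 were higher and 2 lower, or 1 lower with Ltbp2, at 0 in critical cells, at its bound, and Fn1, fibronectin, stood at 396 against 43.2 CPM.

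Smooth muscle-like cells of the 3 libraries also differed in RNA of other cells and in depth. Macrophage markers were found in 48.3%, 27.3% and 5.79% of smooth muscle-like cells and summed to 1594, 1988 and 17.0 CPM, with 9, 9 and 5 of 12 markers found. Adgre1, Ly6c2 and Plac8 were at 0 in the critical library, Cd68, Ly6c2 and Plac8 in the subcritical and Csf1r, C1qa and Cd68 among 7 in the uninjured. Pericyte markers, which include Rgs5, summed to 4183, 3640 and 1460 CPM, FAP markers to 972, 840 and 291 CPM and endothelial markers to 204, 224 and 418 CPM. Median depth was 1439, 1121 and 3633.5 UMIs. In the 22, 31 and 85 cells with no UMI of endothelial or macrophage markers, the summed log2 ratio was −0.08 for critical over uninjured, −0.13 for subcritical over uninjured and 0.06 for critical over subcritical, against −0.12 with all cells. Cells with at least 1500 UMIs gave −0.27, −0.27 and 0.00. The part of this RNA and of depth in the differences was not tested.

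**Figure D3:**
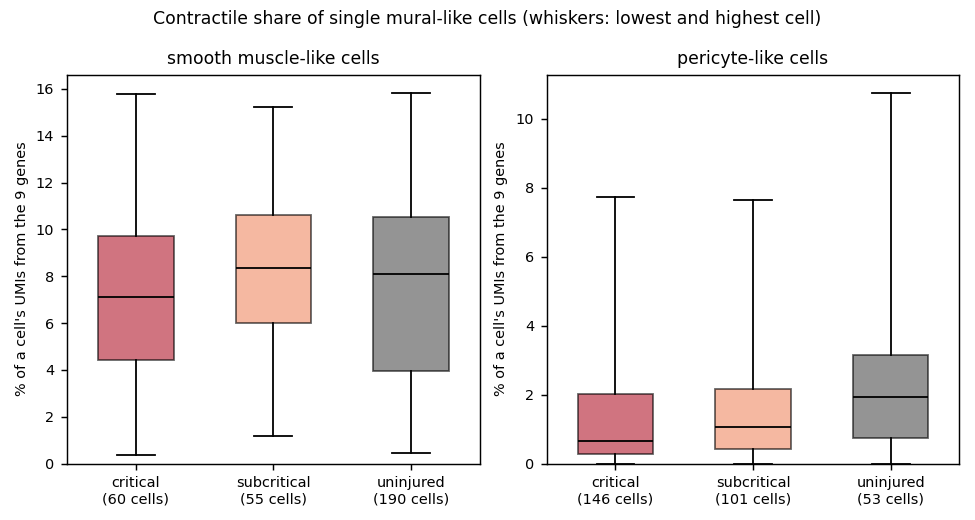
Boxes give the median and quartiles of the percentage of a cell's UMIs that come from the 9 genes, with whiskers to the lowest and highest cell, in smooth muscle-like (left) and pericyte-like cells (right) of the critical, subcritical and uninjured library. Medians are 7.12, 8.35 and 8.10% on the left and 0.655, 1.07 and 1.92% on the right; the panels have different scales.

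The make-up of the vessel wall cells differed between libraries. Smooth muscle-like cells were 29.1% (23.0 to 35.8) of the mural-like cells in the critical library, 35.3% (27.8 to 43.3) in the subcritical and 78.2% (72.5 to 83.2) in the uninjured. The summed level of all mural-like cells was lower in the wounds, at log2 −1.49 for critical over uninjured and −1.06 for subcritical over uninjured. Critical over subcritical was −0.43. In cells with no UMI of endothelial or macrophage markers these ratios were −0.80, −0.63 and −0.17, and pericyte-like cells alone gave −0.94 for critical over subcritical. The part of cell make-up in the mural-like ratios was not tested.

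Pericyte-like cells carried a lower level of the programme in both wounds, and the critical library had the lowest. The 9 genes made up 1.36%, 1.58% and 2.01% of their UMIs, at log2 −0.56 (−0.63 to −0.50) for critical over uninjured and −0.35 (−0.43 to −0.26) for subcritical over uninjured. Of the 9, 1 was lower and 1 higher by 2-fold in critical over uninjured, against 12% of 6440 genes lower and 10.3% higher, and 1 was lower in subcritical over uninjured, against 13.5% of 4974 genes lower and 6.49% higher. In critical over subcritical 1 was lower (Lmod1), against 6.32% of 5919 genes lower and 11.3% higher, and the sum was −0.22 (−0.30 to −0.14), and 0.10 in cells with at least 1500 UMIs.

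Acta2 stood at 4791, 5415 and 6461 CPM in the critical, subcritical and uninjured pericyte-like cells, and was found in 66.4%, 75.2% and 88.7% of them. Tagln stood at 2694, 4404 and 5375 CPM, log2 −0.996 (−1.14 to −0.85) for critical over uninjured and −0.71 (−0.87 to −0.55) for critical over subcritical. Tagln was thus lowest in the critical library, while the Acta2 intervals of the 2 wounds overlap and its critical over subcritical ratio was 0.11 in cells with at least 1500 UMIs. Myl9 stood at 1934, 1965 and 2976 CPM. Myh11 stood at 733, 481 and 1301 CPM, and was again lowest in the subcritical library, at log2 −1.43 (−1.87 to −1.02) over uninjured. Lmod1 stood at 73.3, 150 and 301 CPM, log2 −2.02 (−2.88 to −1.24) and −0.999 (−1.85 to −0.21). It was found in 11.6%, 15.8% and 52.8% of the cells, though on only 19, 19 and 49 UMIs.

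Tpm1 stood at 1892, 2052 and 2246 CPM and Tpm2 at 1015, 971 and 1166 CPM, with ratios near 0. Cnn1 stood at 96.5, 126 and 98.2 CPM, with overlapping intervals. Actg2 ran the other way, at log2 1.13 (0.50 to 1.83) for critical over uninjured and 0.61 (−0.18 to 1.43) for subcritical over uninjured. Its UMIs sat in few cells, 94.5% of the 91 critical UMIs in the 10 highest cells, and 10.3%, 12.9% and 17.0% of cells had any.

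Pericyte-like cells of the critical library also held scar matrix transcripts. Of the scar matrix genes measured, 14 of 16 were at least 2-fold higher in critical over uninjured, against 10.3% of 6440 genes. Their median log2 was 2.40 (2.14 with Adam12, absent from uninjured cells, at its bound). Over subcritical, 9 of 17 were higher, against 11.3% of 5919 genes. Col1a1, the main fibrillar collagen, stood at 3656 CPM in the critical, 1160 in the subcritical and 295 in the uninjured library. FAP markers as a whole, which include Col1a1, Col3a1, Postn and Cthrc1, summed to 10002, 4302 and 2055 CPM in these cells, with 12, 8 and 11 of 15 found. Pi16, Dpp4 and Gdf10 were at 0 in the critical library, and Pdgfra and Lum were at 0 in both others. Macrophage markers summed to 930, 371 and 12.3 CPM. Endothelial markers summed to 1749, 2699 and 3565 CPM and smooth muscle markers other than the 9 genes to 2027, 2028 and 2608 CPM, both highest in uninjured cells, as the 9 genes were. The part of RNA of these other cells in the pericyte differences was not tested.

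Among regulators, 1 of 17 was higher and 3 were lower in critical over uninjured, with a median log2 of 0.34. The background here and for the lists that follow was 10.3% of 6440 genes higher and 12% lower. The 3 lower regulators were Klf4, Hey1 and Ccn1. Klf4, a repressor of contractile genes in cultured smooth muscle cells, stood at 34.7 against 160 CPM (log2 −2.17, −3.48 to −1.06). Hey1, a Notch target, stood at 42.5 against 117 CPM and Ccn1, a YAP and serum response target, at 228 against 540 CPM. Of the smooth muscle apparatus genes 0 of 19 were higher and 2 lower, Synpo2 at 96.5 against 215 CPM and Pdlim3 at 23.2 against 67.5 CPM, both actin or Z-disc linked. Of the vascular tone genes 1 of 13 was higher, Kcnj8, the pore of a potassium channel of pericytes, at 567 against 270 CPM.

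FAP-like cells carried more contractile transcripts in both wounds than in intact muscle. The 9 genes were 0.206%, 0.169% and 0.0327% of their UMIs, at log2 2.65 (2.46 to 2.86) for critical over uninjured and 2.37 (2.17 to 2.58) for subcritical over uninjured. Of 8 members with at least 10 UMIs over both libraries, 7 were at least 2-fold higher and 1 was lower in critical over uninjured, with a median log2 of 2.56, or 2.26 with Actg2 at its bound. Lmod1 had too few UMIs. The background was 10.8% of 11054 genes higher and 9.74% lower, with a median of −0.05. Subcritical over uninjured gave the same counts, 7 higher and 1 lower of 8, with a median of 2.12 (1.85 with the bound), against 8.27% higher and 10.5% lower of 10253 genes. In critical over subcritical 0 of 8 passed 2-fold, all 8 stood above 0 and the median was 0.37, against 2.67% of 11333 genes higher and 1.22% lower. The ratios over uninjured share that library, whose 159 FAP-like cells held 214 UMIs of the 9 genes.

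Among thin filament genes, Acta2 stood at 508 (480 to 537) CPM in the critical, 364 (334 to 397) in the subcritical and 47.3 (32.1 to 67.1) in the uninjured library. That is log2 3.40 (2.91 to 3.99) and 2.92 (2.42 to 3.52) over uninjured. The critical library was also above the subcritical, at 0.48 (0.33 to 0.63). Tagln stood at 470, 453 and 18.3 CPM, log2 4.61 (3.87 to 5.64) and 4.55 (3.81 to 5.59), with the wounds at 0.06 (−0.08 to 0.20) of each other. Tpm1 stood at 593, 520 and 159 CPM and Tpm2 at 251, 176 and 45.8 CPM. Both tropomyosins had smaller ratios than Acta2 and Tagln, 1.89 and 1.71 for Tpm1 and 2.43 and 1.92 for Tpm2. In the uninjured library Tpm1 stood above Acta2, while Tpm2 stood near it, at 45.8 against 47.3 CPM.

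Cnn1 had 34, 19 and 2 UMIs, log2 1.88 (0.22 to 5.29) and 1.78 (0.02 to 5.22) over uninjured. Actg2 had 48, 22 and 0 UMIs, at least 4.28-fold and 3.26-fold higher than in the uninjured library. Lmod1 had 3, 2 and 2 UMIs, too few for any comparison. These 3 genes are rare in fibroblasts of every library.

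The myosin genes parted ways in fibroblasts. Myl9, the light chain, stood at 193, 150 and 29.0 CPM, log2 2.69 (2.07 to 3.48) and 2.33 (1.69 to 3.13). Myh11, the heavy chain, was the member that was lower, with 13, 4 and 14 UMIs, or 5.31, 2.71 and 21.4 CPM, log2 −1.83 (−3.22 to −0.81) and −2.59 (−5.04 to −1.31). It was found in 0.910%, 0.635% and 8.18% of cells, and in endothelial-like cells it stood at 7.71, 10.5 and 51.5 CPM. Fibroblasts of the wounds thus carried the thin filament and light chain genes without the smooth muscle heavy chain.

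**Figure D4:**
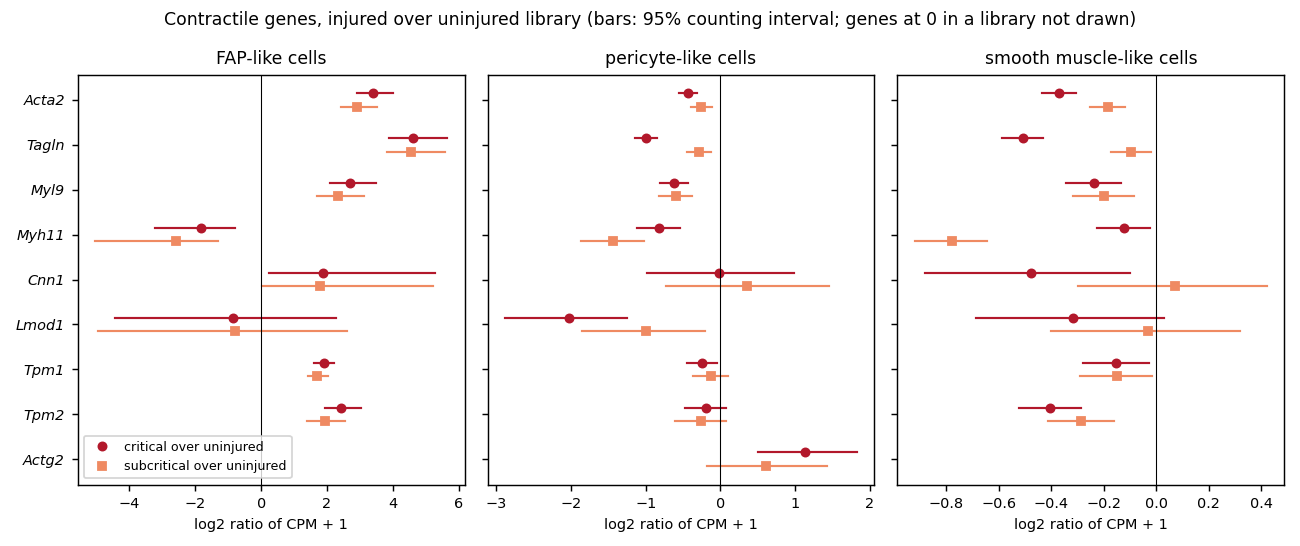
Points give the log2 ratio of CPM + 1 for critical over uninjured (circles) and subcritical over uninjured (squares), with 95% counting intervals, for each gene in FAP-like, pericyte-like and smooth muscle-like cells; genes at 0 in a library are not drawn and the panels have different x ranges. In FAP-like cells Tagln reaches 4.61 and 4.55 and Myh11 stands at −1.83 and −2.59, and in smooth muscle-like cells all points lie between −0.78 and 0.07.

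The higher level lay in 1 of the 2 FAP-like clusters. The first held 538 critical, 393 subcritical and 2 uninjured cells, the second 231, 237 and 157 cells. In the first, Acta2 stood at 635 CPM in the critical library and 490 in the subcritical one, and Tagln at 592 and 602 CPM. In the second, Acta2 stood at 34.7, 10.4 and 43.8 CPM in the critical, subcritical and uninjured library, on 18, 4 and 28 UMIs. All 9 genes together were 0.0302%, 0.0306% and 0.0313% of its UMIs, with ratios over uninjured of −0.05 (−0.36 to 0.26) and −0.03 (−0.37 to 0.30). Single genes differed there: Acta2 of subcritical over uninjured cells stood at log2 −1.98 (−4.05 to −0.56), and Myh11 had 1, 1 and 13 UMIs. The first cluster is called activated and the second resting below.

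Other genes of FAP-like cells show the company of the contractile ones. Of the scar matrix genes 14 of 20 were at least 2-fold higher and none lower in critical over uninjured, with a median log2 of 1.62, and 14 of 20 in subcritical over uninjured, with 1.29. Postn, periostin, stood at 5646, 4628 and 118 CPM, Cthrc1, a collagen-associated protein, at 1203, 1515 and 22.9 CPM, and Lrrc15, a scar fibroblast surface protein, at 194, 146 and 0 CPM. Of the resting and progenitor genes 13 of 16 were lower in each wound over uninjured, with medians of −1.66 and −1.60. Gsn, gelsolin, which cuts actin filaments, stood at 2381, 3270 and 37147 CPM.

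Of the non-muscle actomyosin and adhesion genes 5 of 22 were higher and none lower in critical over uninjured, with a median of 0.52, and 3 of 22 in subcritical over uninjured, with 0.40. Actn1, alpha-actinin, stood at 137, 110 and 29.0 CPM and Palld, palladin, a stress fibre protein, at 279, 248 and 61.0 CPM. Myh9, the non-muscle myosin heavy chain, stood at 329, 219 and 127 CPM. Of the smooth muscle apparatus genes 6 of 20 were higher and 2 lower in critical over uninjured, and 5 of 17 higher and 4 lower in subcritical over uninjured. Cnn2, a more widely expressed calponin, stood at 248, 227 and 57.98 CPM, and Mustn1, a small muscle nuclear protein, at 41.6, 51.5 and 203 CPM. Of the regulators 3 of 20 were higher in each wound, with 2 lower in critical and 1 in subcritical cells. Fhl2, a partner of serum response factor, stood at 102, 99.6 and 29.0 CPM, Ccn1 at 392, 388 and 179 CPM, and Klf4 at 91.0, 102 and 424 CPM. Of the vascular tone genes 3 of 12 were higher and 2 lower in critical over uninjured, or 2 higher with Rgs4 and Rgs5, at 0 in uninjured cells, at their bounds. In subcritical over uninjured 1 of 9 was higher and 3 were lower, with a median of −0.25. Over all genes 10.8% were higher and 9.74% lower in critical over uninjured, and 8.27% and 10.5% in subcritical over uninjured.

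Markers of other cells were read in FAP-like cells too. Smooth muscle markers other than the 9 genes summed to 159, 143 and 253 CPM, with Kcnmb1, Myocd and Rergl at 0 in all 3 libraries, and pericyte markers to 303, 320 and 374 CPM. Both sums were highest in the uninjured library, where the 9 genes were lowest. Mustn1 made up most of the smooth muscle sum there, and the other markers of that list together were lowest there. The part of vessel wall RNA in the FAP-like levels was not tested. Macrophage markers summed to 538, 747 and 29.0 CPM, with 12, 12 and 6 of 12 found. In cells with no UMI of endothelial or macrophage markers the summed log2 ratio was 2.45 for critical over uninjured and 0.05 (−0.05 to 0.15) for critical over subcritical, against 0.28 (0.21 to 0.35) in all FAP-like cells. In cells with no UMI of Rgs5, Notch3 and Myh11 critical over subcritical was 0.17.

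The share of FAP-like cells with at least 1 UMI each of Acta2 and Tagln was counted after thinning every cell to 1432 UMIs, which left out 134, 155 and 22 shallower cells. It was 13.4% (85 of 635 cells, 10.8 to 16.3) in the critical library, 9.26% (44 of 475, 6.81 to 12.2) in the subcritical and 0 of 137 in the uninjured. At this depth 0 cells allow a share with the pair of up to 2.19% when 3 cells are taken as the floor, and the exact interval ends at 2.66%. Without thinning it was 20.4%, 12.2% and 0.629%, with medians of 3361, 2603 and 4273 UMIs in the cells deep enough to thin. The same count in endothelial-like cells gave 0.481%, 0.781% and 1.23%, where such cells had medians of 2103, 2010 and 2309 UMIs. Acta2 stood at 49.6, 62.8 and 75.5 CPM over that class. In macrophage-like cells it gave 1 of 399, 0 of 322 and 0 of 19. Myogenic-like cells gave 10 of 70 (14.3%), 3 of 40 (7.5%) and 1 of 17, so the pair was not particular to fibroblasts. Both injured FAP-like libraries stood above the endothelial-like and macrophage-like counts. The uninjured FAP-like library had none, and the intervals of the 2 wounds overlap.

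Nearly all such cells were in the activated cluster, 84 of 473 critical cells (17.8%) and 44 of 354 subcritical cells (12.4%). The resting cluster gave 1 of 162, 0 of 121 and 0 of 135. Tenocyte-like cells gave 29 of 136 (21.3%, 14.8 to 29.2) after critical injury, 7 of 90 (7.78%, 3.18 to 15.4) after subcritical injury and 3 of 16 in uninjured muscle. In the activated cluster 117 and 91 cells had 1 of the pair without the other. In each library 9 of the positive cells had exactly 1 UMI of each. With so few UMIs per cell, these counts cannot tell a continuum from separate states. A different reading, at least 3 UMIs over the 9 genes, gave 31.7%, 25.9% and 2.92% of FAP-like cells.

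**Figure D5:**
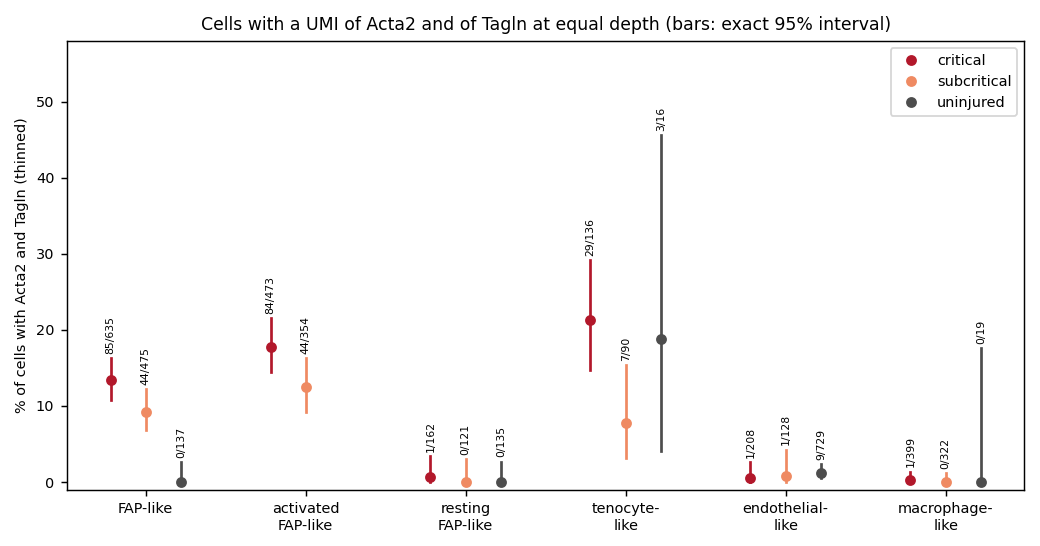
Points give the percentage of cells with a UMI of Acta2 and of Tagln after thinning to equal depth, with exact 95% intervals and the number of cells, for the critical, subcritical and uninjured library. FAP-like cells stand at 13.4%, 9.26% and 0%, and the activated cluster at 17.8% and 12.4%, while endothelial-like cells stay at or under 1.23%.

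Within the activated cluster, cells with the pair were set beside cells without it, 84 against 389 in the critical library and 44 against 310 in the subcritical one, as a description. The 2 sets come from the same library, and the cells with the pair were deeper, with medians of 4385 against 3530 and 3287.5 against 2787 UMIs. Non-muscle actomyosin genes were above 0 in log2 for 20 of 22 in each library, with medians of 0.50 and 0.68. Csrp1, a smooth muscle LIM protein, stood at 419 against 187 CPM in the critical library and 470 against 163 CPM in the subcritical one. Palld stood at 469 against 304 CPM and at 547 against 245 CPM. Of the smooth muscle apparatus genes 14 of 18 and 15 of 15 were above 0, with Cnn2 at 494 against 249 and 579 against 227 CPM and Mylk, the myosin light chain kinase, at 99.99 against 41.2 and 50.9 against 21.2 CPM.

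Resting and progenitor genes were below 0 for 14 of 15 in each library, with medians of −1.45 and −1.999. Gsn stood at 347 against 757 CPM and at 483 against 927 CPM, and Pi16, a progenitor marker, at 16.7 against 77.8 and 31.8 against 94.9 CPM. Scar matrix genes were above 0 for 12 of 20 and 17 of 20, with medians of 0.19 and 0.44. Lrrc15 stood at 361 against 223 and 381 against 163 CPM, while Col3a1 stood at 9158 against 14161 CPM in the critical library. Regulators were above 0 for 9 of 20 and 9 of 19, with medians of −0.03 in each. Pericyte markers summed to 267 against 249 CPM and 203 against 250 CPM, and macrophage markers to 750 against 410 and 197 against 686 CPM, in opposite directions in the 2 libraries. Smooth muscle markers other than the 9 genes were higher in cells with the pair in each library, at 233 against 134 CPM and 159 against 117 CPM. Their part in these values was not tested. The median over all genes was −0.05 and −0.02.

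Few FAP-like cells carried a hashtag, 35 in the critical library and 18 in the subcritical one. In the critical animals they held 33, 9, 32 and 11 Acta2 UMIs, or 1084, 271, 991 and 327 CPM. In the subcritical animals they held 1, 1, 0 and 1 Acta2 UMIs, or 93.5, 46.6, 0 and 68.8 CPM. All 4 critical animals were above all 4 subcritical ones, 668 ± 429 against 52.2 ± 39.7 CPM (SD, n = 4 each), with an exact two-sided permutation p of 0.0286, the smallest that 4 against 4 allow. This comparison was chosen after the values were seen, and it rests on 2 to 12 cells an animal. The summed 9 genes did not separate, at 2565 ± 1532 against 1192 ± 801 CPM (exact permutation p = 0.171). In edgeR over 572 genes, with 4 critical and 2 subcritical animals of at least 5 cells, Acta2 had a log2 ratio of 3.44 ± 0.998 (SE) and an adjusted p of 0.349. Over all FAP-like cells, nearly all untagged, Acta2 stood at 508 and 364 CPM, a critical over subcritical log2 ratio of 0.48. Every tagged subcritical animal, at 0 to 93.5 CPM, lay below the level of its own library. The tagged cells may therefore not represent the class.

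Tenocyte-like cells of the wounds carried these genes too. Acta2 stood at 820 (751 to 894) CPM in the critical library and 389 (325 to 462) in the subcritical one, log2 1.07 (0.80 to 1.36). It was the 1 of 6 measured members past 2-fold, against 6.57% of 7932 genes higher and 4.78% lower. Tagln stood at 609 and 485 CPM and Tpm1 at 987 and 740 CPM. Only 19 uninjured tenocyte-like cells were found, with 18 UMIs of Acta2. Tenocyte-like Acta2 and FAP-like Acta2 of the subcritical library, 389 and 364 CPM, had overlapping intervals, while in the critical library 820 and 508 CPM did not. Activated FAP-like cells, at 635 (600 to 672) and 490 (449 to 533) CPM, lay below the critical tenocyte-like level, and their interval overlaps the subcritical one.

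Myogenic-like cells, the satellite cells and myoblasts, carried Acta2 and the tropomyosins. Acta2 stood at 2302 CPM in the critical, 2315 in the subcritical and 97.5 in the uninjured library, on 609, 343 and 5 UMIs, log2 4.55 (3.33 to 6.19) and 4.56 (3.33 to 6.20). It was the 1 of 5 and 1 of 4 measured members past 2-fold, against 29.9% of 4938 and 23.8% of 3275 genes higher and 13.2% and 12.7% lower, a share near the background. Acta2 is known to be transcribed in myoblasts before the skeletal actin takes over. Cnn1 and Lmod1 had no UMI in any of the 3 libraries, and Myh11 had 0, 1 and 3. Tpm1 and Tpm2, which skeletal muscle shares, stood at 1077, 1303 and 819 CPM and at 790, 1121 and 585 CPM. The uninjured class held 27 cells.

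A cluster of dividing cells, 53 critical, 33 subcritical and no uninjured ones, took no class name. FAP markers were found in 100% of its cells, summing to 44707 and 51368 CPM. Acta2 stood at 3037 (2847 to 3236) CPM in the critical library and 1519 (1324 to 1735) in the subcritical one, and Tagln at 1502 and 784 CPM. Both are above the levels in FAP-like and tenocyte-like cells and below those in pericyte-like cells. At equal depth 21 of 53 and 9 of 32 cells had the Acta2 and Tagln pair. Pericyte markers summed to 1502 and 588 CPM there, and their part in these levels was not tested.

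Endothelial-like cells carried little of the programme as a class, 0.0661%, 0.0669% and 0.0801% of their UMIs. Tagln stood at 239, 274 and 288 CPM over the class, most of it in 1 cluster, at 1144, 1142 and 1510 CPM. Acta2 in that cluster had 3, 0 and 8 UMIs, so Tagln there did not come with the smooth muscle actin. In a second cluster the 9 genes made up 0.0543% and 0.0495% of UMIs in the critical and subcritical library and 0.262% in the uninjured, where 139 cells held 67 UMIs of Acta2 and 174 of Tagln.

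Between animals with at least 10 tagged cells of a class, only Tpm1 had enough counts to be tested. In endothelial-like cells Tpm1 stood at 361 ± 175 CPM in 3 critical, 275 ± 68.0 in 4 subcritical and 353 ± 56.6 in 4 uninjured animals. Single animals gave 383, 176 and 524 CPM in the critical group, 245, 250, 375 and 228 in the subcritical and 427, 311, 366 and 306 in the uninjured, and all groups overlap. The edgeR log2 ratios were 0.63 ± 0.33 (SE, adjusted p = 0.627) for critical over subcritical, 0.24 ± 0.25 (adjusted p = 0.591) for critical over uninjured and −0.39 ± 0.28 (adjusted p = 0.367) for subcritical over uninjured. An adjusted p under 0.05 was met by 0.931%, 15.7% and 19.3% of 1181 genes in these 3 comparisons. In macrophage-like cells Tpm1 stood at 110, 187, 129 and 159 CPM in critical and 130, 113, 135 and 162 CPM in subcritical animals. That is log2 0.11 ± 0.18 (SE, edgeR adjusted p = 0.930), where 0.908% of 4183 genes were called. Counts were also simulated at these library sizes, with 1 spread assumed for all genes and not estimated from the animals. Changes were put only into genes with higher counts. There 27% of 4-fold changes in endothelial-like and 68% in macrophage-like cells were found, and 4% and 11% of 2-fold changes. Smaller differences could thus be missed, and the rates hold for the assumed spread only.

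Across 34 points, each a class of at least 20 cells in 1 library, the 9 genes varied together, with Tagln and Myl9 the closest pair (Pearson r = 0.953 on log2(CPM + 1)). Actg2 was the least like the others, at r = 0.366 to 0.552. Among genes outside the set, those most like the sum of the 9 were Map3k7cl (r = 0.907), Nexn (0.901), Notch3 (0.893), Rgs4 (0.890), Smarcd3 (0.883), Rbpms2 (0.883), Mylk (0.867), Cald1 (0.864), Mark1 (0.859) and Arhgef17 (0.855). Nexn, Notch3, Rgs4, Mylk and Cald1 belong to the lists above. The points share libraries and depth, so r describes these data only.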

How the data were processed

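The deposited files are raw UMI counts per gene and cell, 1 matrix per library, which the authors made with Cell Ranger 6.0.2 per the file headers. The submitters' processing notes name bcl2fastq and GRCm39 (mm39). Each matrix was tied to its group by the group name in its file name. Cells needed 200 genes, 500 UMIs and at most 20% mitochondrial UMIs, and cells with several hashtags were removed. Scrublet called 3, 22 and 0 doublets in the critical, subcritical and uninjured library and so did not work. Leaving out the highest doublet scores was an alternative. Clusters came from scanpy 1.11.5 (2000 variable genes, 30 components, 15 neighbours, Leiden resolution 0.8), and a cluster took a class name with at least 5 detected markers, a number set after clusters were seen. Log2 ratios use a pseudocount of 1 CPM and exact binomial intervals, levels exact Poisson and shares Clopper-Pearson intervals at 95% confidence. Cells were assigned to animals by hashtag counts (mixture model, posterior of at least 0.9), and animals with at least 10 tagged cells were tested with edgeR 4.0.16 (quasi-likelihood, TMM, filterByExpr, Benjamini-Hochberg over all genes), DESeq2 1.42.0 being an alternative; the script was tested on simulated data. Named genes are the 9 members, up to 4 per list with the largest critical over uninjured log2 ratio in either direction (at least 10 UMIs), and the 10 genes most like the members' sum; a few others were named after their values were seen. The 9 genes and all lists were chosen with earlier results of these data known.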

Additional observations from a re-analysis of the deposited data

Results flagged for a closer look

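Tpm1 in endothelial-like cells stood at 375 CPM in subcritical replicate 3, apart from the other 3 subcritical animals at 228 to 250 CPM. It rests on 6 UMIs in 10 cells. It was the 1 such value found in 16 groups looked at, and chance alone gives about 1 in 20.

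The summed level of the 9 genes moved in opposite directions in fibroblasts and smooth muscle. Critical over uninjured was log2 2.65 in FAP-like and −0.34 in smooth muscle-like cells, and subcritical over uninjured was 2.37 and −0.22. The difference was not tested, since each group is 1 library.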

How the results depend on the processing

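No paired analysis was possible because the animals of the groups share no labelled number and the hashtags pair none. Of the planned recomputations of the summed levels, shares and test counts 152 stayed within the limits set for them and 19 moved, none turning sign; of those chosen after seeing the data 17 stayed, 14 moved and 3 turned sign. The FAP-like share with both genes was 20.4% in the critical library without thinning, 24.2% and 21.9% (critical and subcritical) when thinned to 2645 UMIs, and 31.7%, 25.9% and 2.92% (critical, subcritical and uninjured) for at least 3 UMIs over the 9 genes. The following log2 sums are critical over subcritical, critical over uninjured and subcritical over uninjured, where they moved. Mural-like cells gave −0.50, −1.59 and −1.09 with coarser clusters and −0.52 and −1.60 (critical over subcritical, critical over uninjured) with all variable genes kept. Over uninjured they gave −1.45 and −0.99 without ribosomal and mitochondrial genes, and −1.57 and −1.12 without the 9 genes in the total, a setting chosen after seeing the data. Smooth muscle-like cells gave −0.26 and −0.16 over uninjured with all variable genes, and subcritical over uninjured was −0.17 in smooth muscle-like and −0.46 in pericyte-like cells with likely doublets left out. FAP-like cells without UMIs of Rgs5, Notch3 and Myh11 gave 0.17 for critical over subcritical and 2.64 for subcritical over uninjured. Also chosen after seeing the data, cells free of endothelial and macrophage marker UMIs gave −0.17, −0.80 and −0.63 in mural-like and 0.058 (turned), −0.076 and −0.13 in smooth muscle-like cells, −0.94 for critical over subcritical in pericyte-like cells, and 0.0512 and 2.45 for critical over subcritical and over uninjured in FAP-like cells. There, in smooth muscle-like cells, Acta2 critical over subcritical turned to 0.0004045, Myl9 and Myh11 critical over uninjured to 0.18 and 0.00580, and Tagln subcritical over uninjured to 0.064. Cells with at least 1500 UMIs gave 0.00390 (turned), −0.27 and −0.27 in smooth muscle-like and 0.096 (turned), −0.37 and −0.46 in pericyte-like cells, with pericyte Acta2 critical over subcritical at 0.11. The cause was not tested for any of these. Between animals no member was called under any setting at 10 or more cells. Tpm1 ran from 0.27 to 0.89, −0.12 to 0.47 and −0.66 to −0.31 in endothelial-like cells (critical over subcritical, critical over uninjured, subcritical over uninjured) and from −0.039 to 0.20 in macrophage-like cells. Leaving out 1 animal at a time, the second ran from −0.12 (without critical replicate 4) to 0.41, and the last turned to −0.039 without critical replicate 2. With all low genes kept, 0 members were called by edgeR in either class, and 2, 1 and 4 of them had an unadjusted p under 0.05 in the endothelial comparisons. With at least 5 cells an animal, macrophage-like Tpm1 was called over uninjured, at 3.69 (adjusted p = 0.00102) for critical and 3.61 (adjusted p = 0.00180) for subcritical, against 3 animals of 5 to 8 cells at 21.9 ± 37.8 CPM. Genes called ran from 4 to 12 (11 in the report's fit), 126 to 192 (185), 119 to 244 (228) and 26 to 49 (38) in the same order.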
